A study of Mus musculus with 4 samples.

Results

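The subject is 9 mouse genes that interferons are known to induce: the transcription factor Irf1, the antiviral genes Oasl2, Isg15, Ifit1 and Bst2, the chemokine Cxcl10, and Ifitm1, Ifitm2 and Ifitm3 of the interferon-induced transmembrane family. They were chosen by name, and every non-control probe whose RefSeq identifier maps to one of them was taken, which gave 11 of the 41174 probes on the array and 9 of the 17016 genes that could be named. Irf1 and Ifitm2 had 2 probes each and the other genes 1, and each probe had 1 spot. The RNA came from D3 cells, a mouse embryonic stem cell line, on 4 two-colour Agilent arrays. Silenced cells were transfected with siRNA against Pnpla6 (neuropathy target esterase, an enzyme that breaks down phospholipids), and they were set against control cells on the same array. The cells of all 4 groups (silenced and control at 96 h, silenced and control at 24 h) were differentiating as embryoid bodies in serum-containing medium without LIF, the cytokine that holds mouse embryonic stem cells undifferentiated. Each group had 2 arrays, with the dyes exchanged between them: replicate 1 of each time had the silenced RNA in Cy3, and replicate 2 had it in Cy5. What the control cells were given is missing from the labels, as is any statement on separate cultures behind the replicates. The p-values therefore cannot be taken to measure a spread between cultures. For the ratios they rest mostly on a spread shared over probes. It is what is left after a dye term, which takes up the gap between replicates that both times share. Any such spread may be technical.

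Interferons bind receptors whose kinases activate STAT proteins. Complexes of these proteins bind the interferon-stimulated response element (ISRE) or the gamma-activated site (GAS), and IRF1, itself induced through such a site, binds sequences like the ISRE. The products block viruses at different steps: IFITM proteins hinder entry through membranes, IFIT1 binds foreign RNA ends, ISG15 is a ubiquitin-like tag, BST2 (tetherin) holds budding particles at the cell surface, and CXCL10 attracts T cells. Undifferentiated pluripotent cells are known to respond weakly to interferon and yet to use Ifitm genes without it, and Ifitm1 and Ifitm3 (Fragilis) are known from mouse germ cell precursors.

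The 250 bases before the transcription start are shown for the 5 genes with a difference between silenced and control cells at 96 h, because response elements in promoters are the textbook feature of such genes and can be set beside their values. The sequences are RefSeq's for build GRCm38.p6, printed 5′ to 3′ on the gene's strand, and capitals mark matches to the cores searched on both strands, GAAANNGAAA for the ISRE and TTCNNNGAA for the GAS.
Irf1 (chr11:53769764-53770013, plus strand): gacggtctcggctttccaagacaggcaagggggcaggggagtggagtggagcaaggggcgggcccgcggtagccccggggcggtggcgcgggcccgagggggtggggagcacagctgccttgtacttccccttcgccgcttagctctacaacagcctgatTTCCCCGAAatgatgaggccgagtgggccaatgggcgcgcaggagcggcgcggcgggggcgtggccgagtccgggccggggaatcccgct
Oasl2 (chr5:114896684-114896933, plus strand): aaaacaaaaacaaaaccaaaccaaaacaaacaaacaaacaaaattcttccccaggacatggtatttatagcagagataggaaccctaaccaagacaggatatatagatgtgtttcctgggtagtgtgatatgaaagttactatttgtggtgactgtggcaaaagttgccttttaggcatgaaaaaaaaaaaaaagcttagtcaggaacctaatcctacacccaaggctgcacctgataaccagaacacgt
Cxcl10 (chr5:92348890-92349139, minus strand): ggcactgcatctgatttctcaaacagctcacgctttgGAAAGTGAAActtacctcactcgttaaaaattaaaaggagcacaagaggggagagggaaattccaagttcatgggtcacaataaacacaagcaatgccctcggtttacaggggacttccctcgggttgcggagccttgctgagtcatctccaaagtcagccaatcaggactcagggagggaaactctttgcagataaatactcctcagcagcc
Bst2 (chr8:71537473-71537722, minus strand): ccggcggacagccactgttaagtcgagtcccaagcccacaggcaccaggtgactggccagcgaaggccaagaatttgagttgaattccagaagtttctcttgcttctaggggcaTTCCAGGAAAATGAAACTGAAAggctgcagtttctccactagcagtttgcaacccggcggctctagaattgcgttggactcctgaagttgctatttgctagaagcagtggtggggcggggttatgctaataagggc
Ifitm1 (chr7:140967826-140968075, plus strand): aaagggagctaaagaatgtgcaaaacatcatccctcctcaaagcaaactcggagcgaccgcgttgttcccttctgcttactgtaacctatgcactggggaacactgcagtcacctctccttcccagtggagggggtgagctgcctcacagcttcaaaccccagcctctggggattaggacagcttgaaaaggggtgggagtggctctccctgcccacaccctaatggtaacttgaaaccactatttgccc
Bst2 held both cores, with a GAS core at −136 to −128 that overlaps the first of 2 ISRE cores at −130 to −121 and −124 to −115, counted from the start. Cxcl10 had an ISRE core at −213 to −204, and Irf1 had a GAS core at −90 to −82. RefSeq lists a second start for Irf1, not shown, whose window held neither core. Neither core was found for Oasl2 or Ifitm1 in these letters. Over the windows of 250 bases before to 50 after each start, the ISRE core was in 6 of the 10 windows of the 9 genes (Isg15, Cxcl10, Ifitm2, Ifitm3, Bst2 and Ifit1) and in 3.44% of 32851 mouse windows. The GAS core was in 3 of the 10 (Ifitm3, Bst2 and Irf1) and in 8.30% of all windows. A match describes the letters and does not show a bound site.

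Per channel, 62.5% to 68.7% of spots were well above background, the scanner's own call, and no spot was saturated. Of all probes, 28079 passed the filter of being well above background on both arrays of at least 1 group, and 10 of the 11 probes of the 9 genes were among them. Ifit1 was not well above background in any of the 8 channels and was not tested. Oasl2 passed through both 96 h groups and Cxcl10 only through the control cells at 96 h, so part of their rise over time is built into their selection. The label was checked with 6 embryonic stem cell markers, which were all well above background in every group. The log2 ratio of silenced to control cells for Pnpla6 was 0.12 and −0.11 on the 2 arrays at 96 h, against −0.73 and −1.002 at 24 h. So the target was lowered at 24 h, with a fitted log2 ratio of −0.87 (SE 0.06, limma adjusted p = 1.071e-13), and showed no difference at 96 h that passed the test (0.01, SE 0.06, limma adjusted p = 0.962). A second Pnpla6 probe gave a smaller drop of −0.57 at 24 h (arrays −0.75 and −0.39, limma adjusted p = 8.763e-08) and 0.01 at 96 h (limma adjusted p = 0.963).

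**Figure D1:**
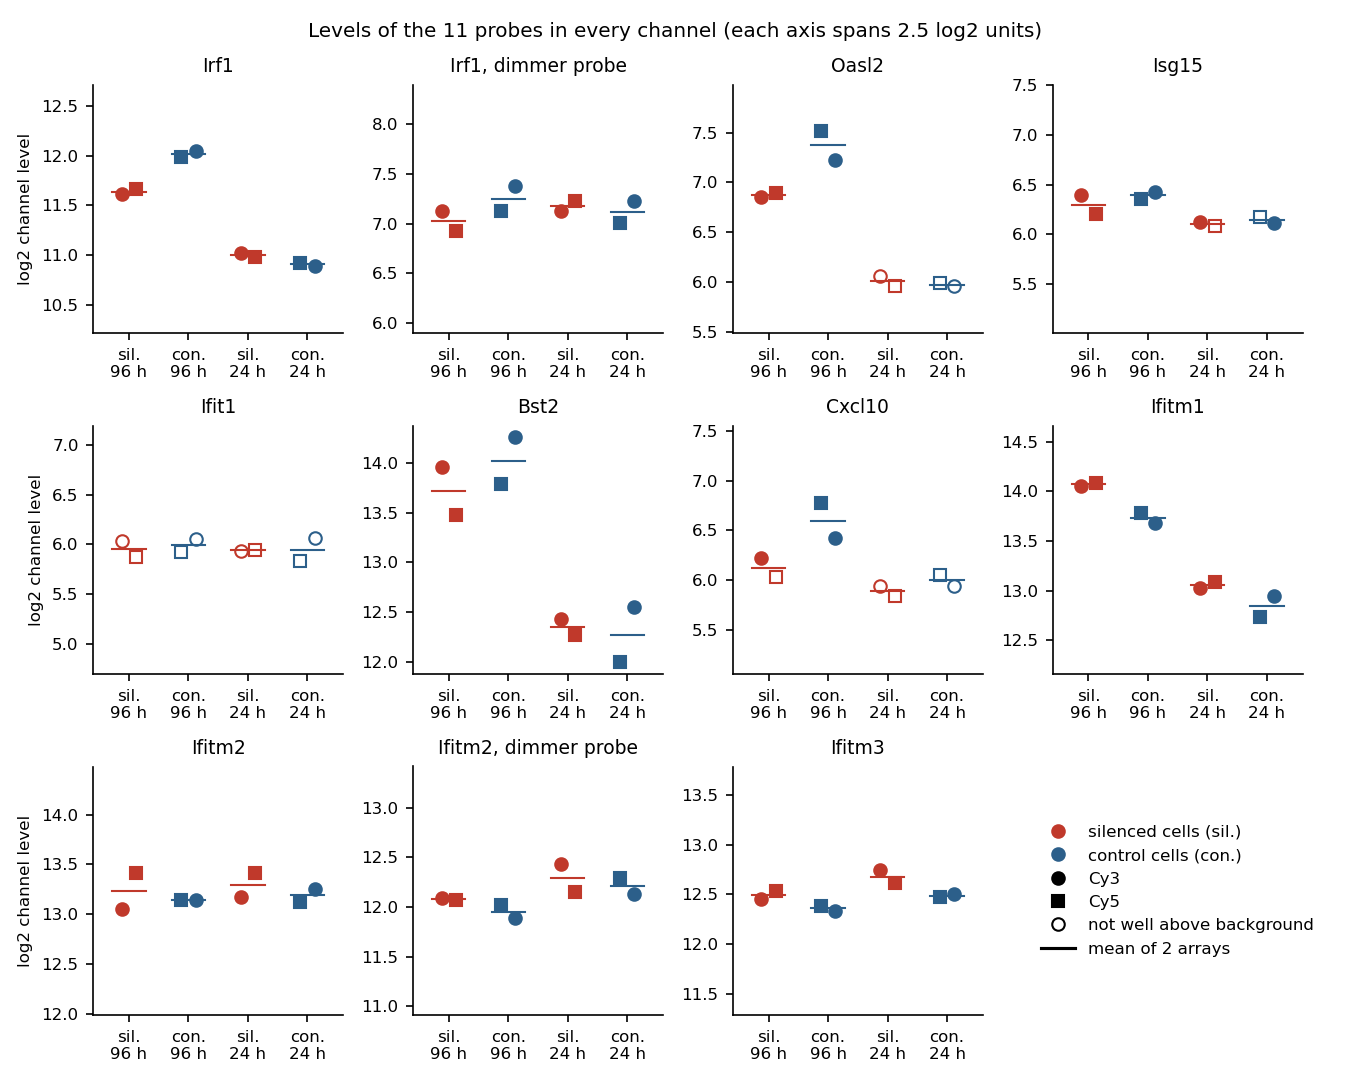
Level of each of the 11 probes (log2, normalized single-channel signal) in each of the 8 channels, with silenced cells in red and control cells in blue at 96 h and 24 h; bars are means of 2 arrays, and open symbols were not well above background. Irf1 (brighter probe), Oasl2, Bst2 and Ifitm1 are higher at 96 h than at 24 h in both RNAs, while all 8 points of Ifit1 are open.

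At 96 h the silenced cells had less Irf1, Oasl2, Cxcl10 and Bst2 RNA and more Ifitm1 RNA than the control cells. Ifitm1 rose 1.27-fold, and the falls of Irf1 (brighter probe) and Oasl2 were 1.30-fold and 1.42-fold. The fall of Bst2 did not pass without the dye term: its arrays gave log2 ratios of 0.18 and −0.78, and the direction turned without 96 h replicate 2. A gene passed when its limma p, adjusted by Benjamini-Hochberg over all 28079 probes, was under 0.05. By that rule 6 of the 10 tested probes passed at 96 h, against 13.0% of all probes: 5 were lower, against 6.70%, and 1 was higher, against 6.28%. At 24 h none of the 10 passed, against 0.406% of all probes in either direction, and 2135 probes of the array had an unadjusted p under 0.05 there. The median log2 ratio over the 10 tested probes was −0.16 at 96 h and 0.08 at 24 h, with medians over all probes of 0.00 at both times. These counts describe genes picked with results of these data known, and the 2 Irf1 probes share a target. Cxcl10 is 1 of the 5 lower probes and passed the filter only through control cells at 96 h, its higher group. Selection therefore shaped its part in these counts. In bulk RNA, fewer cells of a type and less RNA per cell cannot be told apart.

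Irf1, the transcription factor of the set, was lower in silenced cells at 96 h. Its brighter probe (A_51_P146103) had log2 channel levels of 11.61 and 11.66 in silenced cells at 96 h, against 11.98 and 12.04 in control cells. At 24 h the levels were 11.02 and 10.98 in silenced cells, against 10.92 and 10.89 in control cells. The silenced channels lay below the control channels at 96 h and slightly above them at 24 h, without overlap at either time. The arrays gave log2 ratios of −0.37 and −0.38 at 96 h, against 0.10 and 0.09 at 24 h. The fitted ratio was −0.38 at 96 h (SE 0.06, n = 2 arrays, limma adjusted p = 1.471e-05), or 1.30-fold lower. The dimmer Irf1 probe (A_52_P175685) rested on 1 array: its log2 ratios were 0.00 and −0.45 at 96 h, against 0.13 and −0.00 at 24 h. The fit gave −0.22 at 96 h for that probe (SE 0.07, limma adjusted p = 0.01467), with silenced levels of 7.13 and 6.92 and control levels of 7.12 and 7.37 that overlapped. Its signals were 63 to 110.5 scanner units above the local background over the 8 channels.

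Oasl2, a 2′-5′-oligoadenylate synthetase-like gene of the antiviral response, was not well above background on any 24 h array and was so on every 96 h array. At 96 h its log2 levels were 6.85 and 6.89 in silenced cells, against 7.52 and 7.23 in control cells, so both silenced channels lay under both control channels. The log2 ratios were −0.67 and −0.33, and the fit gave −0.50 (SE 0.07, n = 2 arrays, limma adjusted p = 1.218e-07), or 1.42-fold lower. The signal was low, at 50.5 and 87.5 scanner units above background in silenced cells and 167 and 78.5 units in control cells, on scales that differ between dyes. At 24 h the ratios of 0.07 and −0.00 compared 2 signals at background.

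Isg15, the ubiquitin-like tag, and Ifit1, the RNA-binding effector, showed no difference that passed. Isg15 was well above background on both arrays at 96 h and on 1 of 2 arrays at 24 h in each RNA. Its log2 levels at 96 h were 6.39 and 6.20 in silenced cells, against 6.36 and 6.43 in control cells, and the groups overlapped. The 2 ratios differed in sign, 0.04 and −0.23, and the fit gave −0.10 with a 95% interval of −0.23 to 0.04 (limma adjusted p = 0.398). Ifit1 lay at 5.87 to 6.04 in silenced cells and 5.83 to 6.06 in control cells over both times, where values have no order because all of them were at background.

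Bst2, which encodes tetherin, was bright, and its 2 arrays differed more than those of the other 9 tested probes at either time. Its log2 levels at 96 h were 13.96 and 13.48 in silenced cells, against 13.78 and 14.26 in control cells. At 24 h they were 12.43 and 12.27 in silenced cells, against 11.997 and 12.55 in control cells. The groups overlapped at both times, and on each array the Cy3 channel was the higher one. The log2 ratios were accordingly 0.18 and −0.78 at 96 h, against 0.43 and −0.28 at 24 h. After a dye term of −0.42, shared by both times, the fit gave −0.30 at 96 h (SE 0.06, n = 2 arrays, limma adjusted p = 0.0006589). Without the dye term the same estimate had a limma adjusted p of 0.829, and on 96 h replicate 1 alone the sign was the opposite one (0.18).

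Cxcl10, the chemokine, was near the limit of the array. At 96 h it was well above background on 1 of 2 arrays in silenced cells and on 2 of 2 in control cells, and at 24 h on none in either. Its log2 levels at 96 h were 6.22 and 6.03 in silenced cells, against 6.77 and 6.42 in control cells, with no overlap. The log2 ratios of −0.55 and −0.40 had the same sign, and the fit gave −0.47 (SE 0.06, n = 2 arrays, limma adjusted p = 1.621e-07). Its probe entered the tests only through the control cells at 96 h, the higher group here, so that selection shaped this test as well. Signals above background were 14.5 and 11.5 units in silenced cells, against 66.5 and 26 units in control cells. With these few units the fold depends on how background is treated: with an offset of 16 in place of 50 it was −0.81 on the log2 scale, and the authors' own ratios gave −2.01.

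The Ifitm genes went the other way from Irf1 and Cxcl10 or did not pass. Ifitm1 had log2 levels of 14.06 and 14.09 in silenced cells at 96 h, against 13.78 and 13.68 in control cells. At 24 h the levels were 13.03 and 13.09 in silenced cells, against 12.74 and 12.95 in control cells, so the silenced channels were the higher ones at both times without overlap. Its log2 ratios were 0.28 and 0.41 at 96 h, against 0.29 and 0.14 at 24 h. The fit gave 0.34 at 96 h (SE 0.06, n = 2 arrays, limma adjusted p = 0.0001018) and 0.22 at 24 h (SE 0.06, n = 2 arrays, limma adjusted p = 0.157), and the difference between the times was 0.13 (95% interval −0.06 to 0.31, limma adjusted p = 0.514). The rise therefore passed at 96 h and not at 24 h, while a change in it between the times was not shown.

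Ifitm2 and Ifitm3, neighbours of Ifitm1 on chromosome 7, had fitted ratios above 0 at both times that did not pass. Ifitm3 gave log2 ratios of 0.06 and 0.20 at 96 h, against 0.27 and 0.12 at 24 h, with a fit of 0.13 at 96 h (95% interval 0.00 to 0.26, limma adjusted p = 0.197) and 0.19 at 24 h (95% interval 0.06 to 0.32, limma adjusted p = 0.280). The brighter Ifitm2 probe (A_51_P168459) gave −0.09 and 0.28 at 96 h, against 0.05 and 0.16 at 24 h, with signs that differed at 96 h. The dimmer Ifitm2 probe (A_52_P559618) gave 0.07 and 0.17 at 96 h, against 0.15 and 0.02 at 24 h. Fits at 96 h were 0.09 (95% interval −0.04 to 0.22) and 0.12 (95% interval −0.01 to 0.25) for these 2 probes, with limma adjusted p of 0.402 and 0.237. The intervals do not exclude rises smaller than that of Ifitm1. The 3 genes are similar in sequence, and how far their probes bind each other's RNA was not tested.

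**Figure D2:**
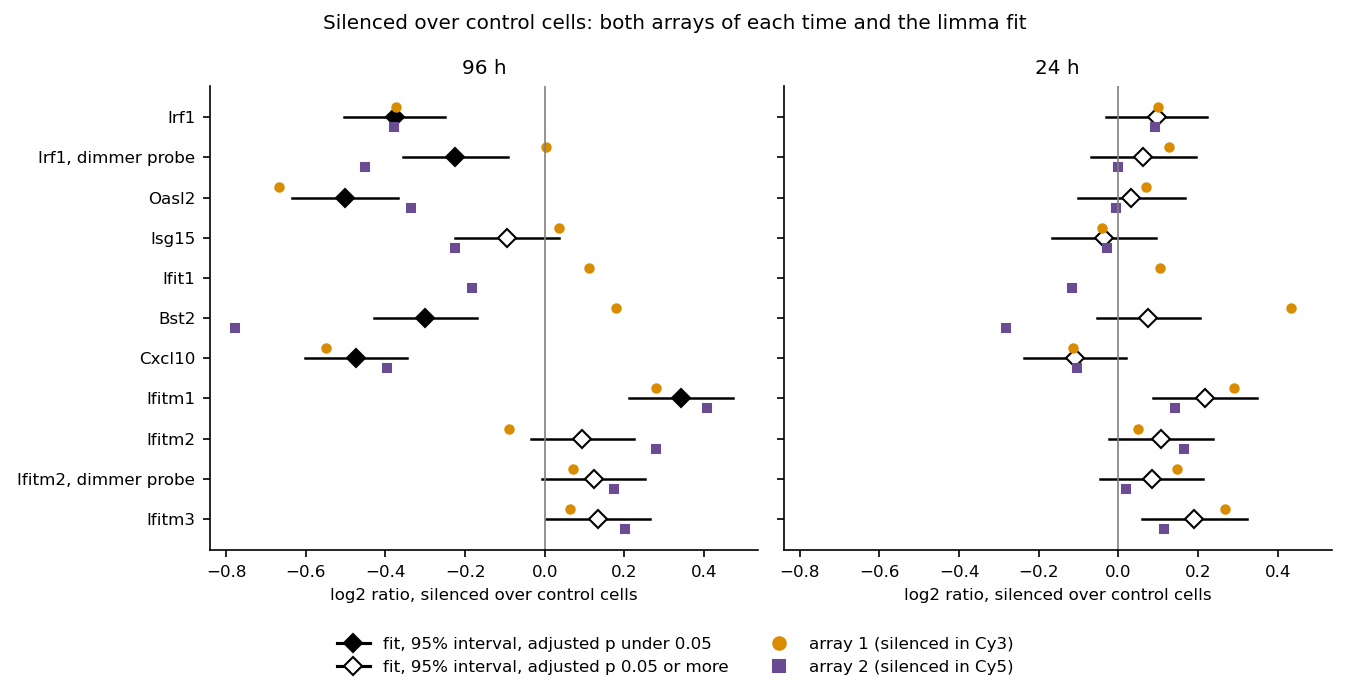
Log2 ratio of silenced to control cells for each probe on both arrays at 96 h (left) and 24 h (right), with the limma fit and its 95% interval; filled diamonds have an adjusted p under 0.05. At 96 h both arrays of Irf1 (brighter probe), Oasl2 and Cxcl10 lie under 0 and both of Ifitm1 above 0, while those of Bst2 stand on opposite sides at both times.

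The differences at 96 h were small. The fit has 1 residual degree of freedom per probe and leans on the spread shared over probes, and none of the 6 probes that passed at 96 h passed without the dye term, with the authors' own ratios or when any array was left out. The cause of the lost calls was not tested. Without 96 h replicate 2, which leaves the arrays of the slide that holds both times, the log2 ratios at 96 h were −0.37 for Irf1, −0.67 for Oasl2, −0.55 for Cxcl10 and 0.28 for Ifitm1, but 0.18 for Bst2 and 0.00 for the dimmer Irf1 probe.

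Whether the silencing ratio itself changed between the times was tested next. It was lower at 96 h than at 24 h for 5 of the 10 tested probes, those of Irf1 (both), Oasl2, Cxcl10 and Bst2, against 4.13% of all probes (6.96% in either direction), and higher for none, against 2.82%. The log2 difference, 96 h minus 24 h, was −0.47 for the brighter Irf1 probe (SE 0.09, limma adjusted p = 0.0002031) and −0.29 for the dimmer one (SE 0.09, limma adjusted p = 0.04802). It was −0.53 for Oasl2 (SE 0.09, limma adjusted p = 6.62e-05), −0.36 for Cxcl10 (SE 0.09, limma adjusted p = 0.005782) and −0.38 for Bst2 (SE 0.09, limma adjusted p = 0.004811). For Oasl2 and Cxcl10 the 24 h ratio compared 2 signals not well above background, so these 2 values do not measure a change between the times, and the count rests on the 3 probes of Irf1 and Bst2. Of these 3, the dimmer Irf1 probe rested on 1 array at 96 h (0.00 and −0.45), and the arrays of Bst2 differed in sign at both times. Only the brighter Irf1 probe had both 96 h arrays under both 24 h arrays. For the Ifitm probes and Isg15 the differences ran between −0.06 and 0.13, and none passed.

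The next comparison set 96 h against 24 h within each RNA, from the single channels. Bst2, Oasl2, Irf1 and Ifitm1 rose between the times in both RNAs, and Cxcl10 rose in control cells. In silenced cells 4 of the 10 tested probes were higher at 96 h, against 18.1% of all probes, and none lower, against 19.4% (37.6% in either direction). In control cells 5 of the 10 were higher, against 17.9%, and none lower, against 18.8% (36.7% in either direction). Oasl2 is counted in both RNAs and Cxcl10 in control cells, and both entered the tests only through 96 h groups. Their part in these counts is therefore partly set by the filter. The median log2 change of the 10 probes was 0.21 in silenced cells and 0.43 in control cells, with −0.03 and −0.02 over all probes.

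Among the probes measured at both times, Bst2 changed most, by 1.37 on the log2 scale in silenced cells (SE 0.14, limma adjusted p = 0.0002447) and by 1.75 in control cells (SE 0.14, limma adjusted p = 7.877e-05), or 2.59-fold and 3.36-fold. Every 96 h channel of Bst2 was above every 24 h channel. Irf1 (brighter probe) rose by 0.63 in silenced cells (SE 0.09, limma adjusted p = 0.001051) and by 1.11 in control cells (SE 0.09, limma adjusted p = 7.921e-05). The dimmer Irf1 probe gave −0.15 and 0.14, neither of which passed, so the 2 Irf1 probes did not show the same time course. Ifitm1 rose by 1.01 in silenced cells (SE 0.14, limma adjusted p = 0.001175) and by 0.88 in control cells (SE 0.14, limma adjusted p = 0.002245).

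Since Oasl2 was at background at 24 h, its fold was also computed against a floor. The floor was the higher of its own signal and the dimmest probe well above background on each array. These floored folds come from mean levels and do not allow for the spread between arrays. The p-values belong to the fits without the floor. Oasl2 was 1.79-fold higher than its floor at 96 h in silenced cells and 2.64-fold higher in control cells. Its fitted log2 changes were 0.87 (SE 0.18, limma adjusted p = 0.007762) and 1.40 (SE 0.18, limma adjusted p = 0.0008852). Cxcl10 was 1.11-fold higher than its floor in silenced cells and 1.51-fold higher in control cells. Its fitted change of 0.24 in silenced cells did not pass (SE 0.13, limma adjusted p = 0.185, well above background on 1 of 2 arrays). In control cells the fit gave 0.60 (SE 0.13, limma adjusted p = 0.008039). Isg15 gave 0.19 in silenced cells and 0.25 in control cells, and Ifitm3 gave −0.19 and −0.13; neither gene passed in either RNA. Ifitm2 gave −0.06 and −0.05 with its brighter probe and −0.22 and −0.25 with its dimmer one, again without passing.

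By mean level, Irf1 (brighter probe), Oasl2 and Bst2 stood highest in control cells at 96 h, then in silenced cells at 96 h, then in both 24 h groups, of which those of Oasl2 were at background. Cxcl10 was highest in control cells at 96 h, and its other groups have no order, since 1 of 2 silenced channels at 96 h and all 24 h channels were not well above background. For Ifitm1 the silenced cells at 96 h stood first (mean log2 level 14.07 ± 0.02), then the control cells at 96 h (13.73 ± 0.07), the silenced cells at 24 h (13.06 ± 0.04) and the control cells at 24 h (12.84 ± 0.15; SD, n = 2 each). The 2 upper groups of Bst2, 13.72 ± 0.34 in silenced cells and 14.02 ± 0.33 in control cells at 96 h, lay within their spread, as did its 2 lower ones, 12.35 ± 0.12 and 12.27 ± 0.39 at 24 h. On the slide that holds both times, the changes were 0.61 in silenced cells and 1.08 in control cells for Irf1, 0.83 and 1.56 for Oasl2, 1.44 and 1.69 for Bst2, and 0.96 and 0.97 for Ifitm1, and all of these passed. There Cxcl10 also passed in silenced cells (0.34, limma adjusted p = 0.02041), as it did without 24 h replicate 1 (0.33, limma adjusted p = 0.04193), so its call in silenced cells turns on single arrays.

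**Figure D3:**
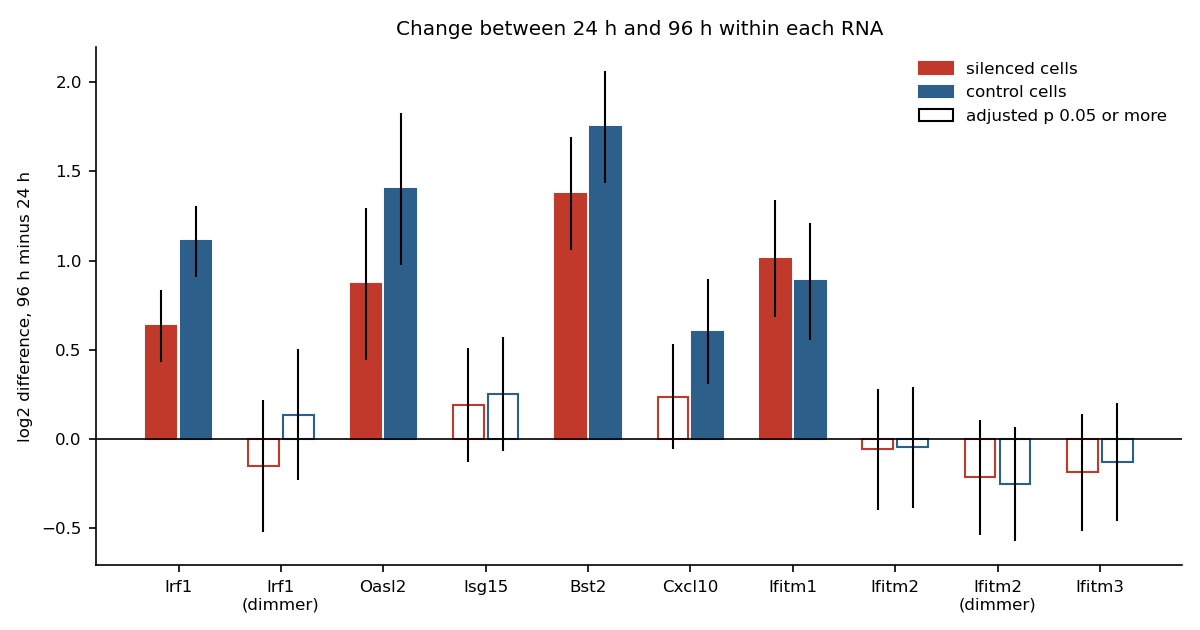
Log2 difference of 96 h minus 24 h within silenced cells (red) and within control cells (blue) for the 10 tested probes, with 95% intervals; open bars have an adjusted p of 0.05 or more. Bst2, Oasl2 and Irf1 (brighter probe) rise in both RNAs with the lower bar in silenced cells, and Ifitm1 rises in both with the higher bar in silenced cells.

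Other genes of the interferon pathway were counted from 8 lists, chosen with earlier results of these data known. Of 85 genes the array held 74, and 52 passed the filter and were tested by their brightest probe. At 96 h, 8 were lower in silenced cells, against 6.70% of all probes, and 3 higher, against 6.28%, and at 24 h none passed, against 0.406% in either direction. All 8 lower genes were antiviral effectors, of which 23 were tested and 1, Trim25, was higher. The median log2 ratio of the 52 genes was −0.02 at 96 h and 0.01 at 24 h, with 18 of the 52 above 0 at 96 h, against 50.5% of all probes.

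The guanylate-binding GTPase Gbp2 fell most, with log2 ratios of −0.79 and −0.72 on the 2 arrays at 96 h, against 0.03 and 0.04 at 24 h, and a fit of −0.76 (SE 0.06, limma adjusted p = 2.102e-13). Its log2 levels at 24 h were low, at 6.119 and 6.255 in silenced cells and 6.085 and 6.216 in control cells. The lowest levels well above background in the 24 h channels were 5.94 to 6.01, so its 24 h ratio compared signals near that limit. The immunity-related GTPase Igtp gave −0.65 and −0.61 at 96 h, against 0.04 and −0.02 at 24 h, and a fit of −0.63 (SE 0.06, limma adjusted p = 6.992e-11). Both are known to be induced by interferon gamma. They passed in 7 of 10 other settings, more than any of the 9 genes, which passed in 4 at most. Irgm1, of the same GTPase family as Igtp, fell by 0.42 on the log2 scale, and its second probe by 0.24. The secreted glycoprotein gene Lgals3bp fell by 0.37, and the ADP-ribosyltransferase family genes Parp9 and Parp14 by 0.33 and 0.31, though 2 other Parp14 probes gave −0.05 and −0.02. Irgm1, Lgals3bp, Parp9 and Parp14 each passed in 4 of 10 other settings, and without any 1 array none of these 4 did. Trim21 (−0.22), Samhd1 (−0.18) and Trim25 (0.22), which also passed, were named after their values were seen.

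Of 12 receptor and signalling genes tested, none was lower at 96 h, against 6.70% of all probes, and 1 was higher, against 6.28%. Counts this small do not set these genes apart from all probes. The higher one was the interferon receptor chain Ifnar2 at 0.22 (limma adjusted p = 0.01499). Its 2 arrays gave 0.03 and 0.40, it passed in 3 of 10 other settings, and its second probe gave −0.00. Stat2 gave −0.03 and Socs1, a feedback inhibitor, −0.05; neither passed, and both were named for their role after their values were seen. Among 4 interferon regulatory factors tested, Irf8 was higher at 0.24 (limma adjusted p = 0.007874, passing in 3 of 10 other settings), with 0.07 on its second probe. Of 7 sensors and adaptors none passed, against 13.0% of all probes in either direction, and the smallest p belonged to Myd88 (−0.14) and Mavs (0.11). Cxcl16, the one other chemokine tested, gave −0.16 (limma adjusted p = 0.0942). Among the interferon genes themselves only Ifnz was tested (−0.07), and Ifnb1, Ifna1, Ifna4, Ifng and Ifnk did not pass the filter. Ifitm5 (−0.02) and Ifitm6 (−0.10) of the Ifitm family, and Uba7 (0.11) and Ube2l6 (−0.06) of the ISG15 pathway, did not pass.

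**Figure D4:**
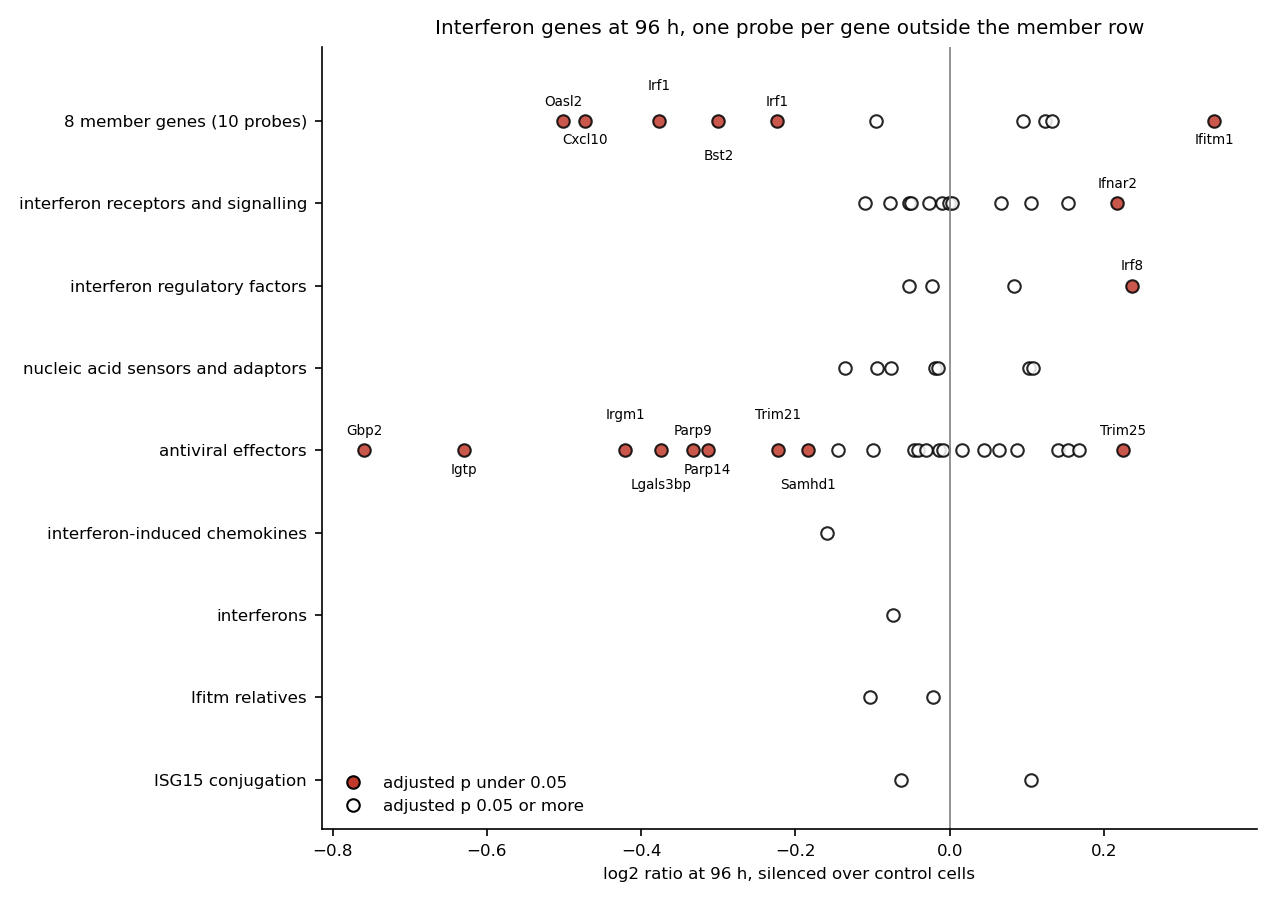
Log2 ratio of silenced to control cells at 96 h for the 10 tested probes of the 9 genes (8 genes, top row) and for 52 other interferon genes by list; red points have an adjusted p under 0.05 and carry their names. The 8 red points under 0 outside the top row are all antiviral effectors, with Gbp2 and Igtp farthest out.

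Over time these genes did not move as one. In each RNA 14 of the 52 were higher at 96 h than at 24 h and 14 lower. Over all probes 18.1% were higher and 19.4% lower in silenced cells, and 17.9% and 18.8% in control cells. Igtp rose by 2.34 on the log2 scale in silenced cells and by 2.98 in control cells, and Gbp2 by 0.92 and 1.72, so both rose in both RNAs. The size of the Gbp2 rise is uncertain, since its 24 h levels were near the limit of the array. Socs3 rose by 1.28 in each, and Irf8 by 1.65 and 1.46. The oligoadenylate synthetase Oas1a fell by 1.30 in silenced cells and by 1.27 in control cells and Oas2 by 1.07 and 1.19. Of their relatives, Oas3 gave 0.18 and 0.24, which did not pass, and Oasl1 rose by 0.38 in silenced cells (limma adjusted p = 0.01828) and gave 0.10 in control cells, which did not pass. The adaptor Myd88 fell by 0.88 and 0.78. The silencing ratio was lower at 96 h than at 24 h for 7 of the 52, all antiviral effectors (Gbp2, Igtp, Irgm1, Lgals3bp, Trim21, Parp14 and Parp9), against 4.13% of all probes. It was higher for 1, Oasl1 (0.28, limma adjusted p = 0.04802), against 2.82%. The 24 h log2 levels of Gbp2 (6.085 to 6.255), Lgals3bp (6.147 to 6.439) and Trim21 (6.286 to 6.488) were low. Their changes in the ratio therefore rest on 24 h signals near the limit.

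Markers of other cell types were set beside these genes. Of 10 fibroblast markers 7 were tested, and at 96 h 4 were lower in silenced cells, against 6.70% of all probes. They were Cxcl12 (−0.71, and −0.12 on a second probe), Dcn (−0.44), Col1a2 (−0.35) and Thy1 (−0.32, and −0.08 on a second probe). Fbln2 was higher (0.47), against 6.28% of all probes. The other tested markers, Col1a1 (0.05) and Pdgfra (0.12), were above 0 and did not pass. Lum, Col3a1 and Postn did not pass the filter. Cxcl12 passed in 7 of 10 other settings, and Dcn, Col1a2, Thy1 and Fbln2 in 4. The log2 of the summed fibroblast marker levels was 11.40 to 11.43 in silenced cells at 96 h, against 11.51 to 11.65 in control cells, and 10.78 to 10.84 at 24 h, against 10.78 to 10.86. The part of these markers in the falls of Irf1, Oasl2, Cxcl10, Bst2 and the antiviral effectors was not tested.

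At 96 h none of 5 tested white blood cell markers of 7 on the array passed, against 13.0% of all probes in either direction. Laptm5 (0.18) and Cd3e (0.07) had the smallest p, and Ptprc and Adgre1 did not pass the filter. Their summed log2 level at 96 h was 10.47 to 10.58 in silenced cells, against 10.33 to 10.44 in control cells, and at 24 h 11.06 to 11.20 in silenced cells, against 11.02 to 11.32 in control cells. Of 7 germ cell precursor and streak markers tested, 1 was higher at 96 h, against 6.28% of all probes, and none lower, against 6.70%. The higher one was Prdm1 (0.30, limma adjusted p = 0.001518). The summed log2 level of the 7 markers at 96 h was 12.49 to 12.53 in silenced cells, against 12.36 to 12.50 in control cells. At 24 h it was 9.82 to 9.89 in silenced cells, against 9.78 to 9.86 in control cells. The sum was thus higher at 96 h in both RNAs. Tfap2c (3.95 in silenced and 3.84 in control cells) and Dppa3 (1.88 and 1.99) rose most. Of the 7 markers, 2 passed as higher over time in silenced cells, against 18.1% of all probes. In control cells 3 did, against 17.9%. Changes above 0 were found for 7 of the 7 markers in silenced cells and 6 in control cells, against 46.7% and 47.0% of all probes. Their median log2 changes were 0.215 and 0.257, with −0.03 and −0.02 over all probes. A rise of the markers as a set was not tested. Of the 6 stem cell markers Sox2 (0.36) and Zfp42 (0.30) were higher at 96 h, against 6.28% of all probes. Pou5f1 was lower (−1.05), against 6.70%, though its 2 arrays gave 0.01 and −2.11, a split of the kind seen for Bst2. At 24 h Pou5f1 passed in the other direction (0.68, limma adjusted p = 6.151e-10), again with split arrays (1.575 and −0.21). The part of these markers in the rise of Ifitm1 and in the changes over time was not tested.

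The genes most like each of the 5 in pattern were found by Pearson correlation of log2 levels over the 8 channels, after the mean of each dye was taken out. The 8 points come from 4 arrays and 2 times, so any gene that changes with time scores high, and between 35 and 1716 of 12963 genes had a correlation over 0.95 with each. Irf1 was nearest to Unc5b, Zmynd8 and Shroom1 (0.998 to 0.999), and Oasl2 to Zkscan1, Zyx and Dock11 (0.998 to 0.999). Bst2 was nearest to Limd2, Arap3 and Cyp7b1 (0.998 to 0.999), Ifitm1 to Adcy9, Tmem106b and Oas1d (0.996 to 0.998), and Cxcl10 to Rbks, Mogat1 and Kcnk12 (0.981 to 0.990). Among the 8 tested genes Irf1 and Oasl2 were the closest pair (0.988), followed by Irf1 and Bst2 (0.978). The 24 h channels of Oasl2 and Cxcl10 were not well above background, so the correlations of these 2 genes rest partly on background signals. Ifitm2 and Ifitm3 correlated at 0.49 with each other and at −0.04 and −0.44 with Ifitm1.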

How the data were processed

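Each of 4 arrays compared silenced with control cells, and the labels give the time, the dye of each RNA and 200 ng of labelled total RNA. The authors scanned and extracted the arrays with Feature Extraction of Agilent, version 10.7.1.1 and design build mm8 in the file headers; the submitters' processing notes give 10.7 and also list limma without a version. The deposited files hold spot, background and processed signals as intensity in scanner units. They also hold log10 ratios of Cy5 over Cy3 and, per the file headers, a p-value of each ratio from 1 array, which was not used. The authors' series table holds the same log10 ratios turned to silenced over control, within 4.97e-06, with column medians of 0.

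With R 4.3.3 and limma 3.58.1, median signals were background-corrected (normexp, offset 50) and loess-normalized within arrays, since the deposited intensity values are not normalized. Control spots (1639 of 45018) and 429 outlier-flagged spots were left out, and no channel lacked a value for the 9 genes. Median signals were 55 to 63 units (Cy3) and 114 to 130 units (Cy5), over local backgrounds of 19 to 22 and 58 to 64 units. RefSeq identifiers named 24375 of 41174 probes; 16799 kept their own. Each probe was tested alone. Log2 ratios were fitted with a mean per time and a dye term that coincides with the replicate number (1 residual and 46.98 prior degrees of freedom). For the times, channels were scaled with Aquantile and fitted with lmscFit (intraspot correlation 0.894), and the log2 channel levels are these scaled values. All tests were two-sided, adjusted by Benjamini-Hochberg over 28079 probes.

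The 9 genes, the lists and the naming rule were chosen with earlier results of these data known. The rule names all probes of the 9 genes, the largest changes past the threshold in each list (at most 6, or the 2 with the smallest p), the 3 genes most alike in pattern to each gene that passed at 96 h, and Pnpla6. Tested on simulated data, the ratio fit at 96 h recovered 65.7% of log2 changes of 0.25 and 100% of 0.5, and the channel fit for control cells recovered 43% of changes of 0.5 and 96% of 1 among 4000 probes. The simulated ratios had normal noise with 1 spread common to all probes and the same dye term as the fit. Real arrays may depart from this, so these shares may not hold for them. Alternatives covered the offset, normalization, filter, dye term, feature, signal source and each array. The number of arrays limits the precision.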

Additional observations from a re-analysis of the deposited data

Results flagged for a closer look

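The ratio of silenced to control cells differed between 96 h and 24 h for 5 probes, by limma's test of the difference itself over all 28079 probes. The log2 difference, 96 h minus 24 h, was −0.47 for Irf1 on its brighter probe A_51_P146103 (limma adjusted p = 0.0002031) and −0.29 on its dimmer probe A_52_P175685 (limma adjusted p = 0.04802). It was −0.53 for Oasl2 (limma adjusted p = 6.62e-05), −0.36 for Cxcl10 (limma adjusted p = 0.005782) and −0.38 for Bst2 (limma adjusted p = 0.004811). For the brighter Irf1 probe both 96 h arrays (−0.37 and −0.38) lay under both 24 h arrays (0.10 and 0.09). The 24 h ratios of Oasl2 and Cxcl10 compare signals not well above background and so measure no change between the times, and the arrays of Bst2 differed in sign at both times. With 2 arrays per group, no array could be tested as standing apart from its own group.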

How the results depend on the processing

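Over all probes, counts past the threshold moved with most choices, and the cause was not tested. The silencing ratio passed for 3645 probes at 96 h and 114 at 24 h, and it differed between the times for 1954. With an offset of 16 they became 1417, 1 and 468, and with median centring in place of loess 2242 (1386 higher and 856 lower, against 1763 and 1882), 52 and 983. With the authors' own ratios each was 0, with 4875, 1926 and 3755 probes at an unadjusted p under 0.05. Without the replicate block (the dye term) they were 150, 0 and 0, with 2662, 270 and 1672 at an unadjusted p under 0.05. With no filter the 24 h count was 177. Without any 1 array 0 were left at 24 h (248 to 486 at an unadjusted p under 0.05), 38 to 206 at 96 h, and between 0 and 3 differed between the times.

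Of the 10 probes, 6 passed at 96 h, and 4 to 6 did with another offset, centring, filter or 1 probe per gene. None (0) passed from the authors' ratios, with no replicate block or without any 1 array. For the difference 5 passed, with 1 at an offset of 16, 3 with median centring, and 0 from the authors' ratios, with no replicate block or without any 1 array. Same-numbered arrays of the 2 times deviated together over all probes (correlation 0.677); they share a dye orientation, so this does not show paired cultures. A slide term could not be added to the dye term; the arrays of the slide that holds both times are those left without 96 h replicate 2.

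Directions turned when 1 array was left out, with these ranges. At 96 h they were −0.090 to 0.28 for Ifitm2 (brighter probe), −0.45 to 0.0030 for Irf1 (dimmer probe), −0.23 to 0.035 for Isg15 and −0.78 to 0.18 for Bst2. At 24 h they were −0.00058 to 0.13 for Irf1 (dimmer probe) and −0.28 to 0.43 for Bst2. For the difference they were −0.20 to 0.17 and −0.025 to 0.10 for the 2 Ifitm2 probes, −0.13 to 0.018 for Ifitm3, −0.19 to 0.070 for Isg15 and −0.85 to 0.10 for Bst2. The difference also turned to 0.019 for Ifitm2 (brighter probe) with median centring and to 0.042 for Isg15 from the authors' ratios.

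Over time, a replicate block beside the dye raised the counts to 16394 in silenced cells and 16186 in control cells, against 10553 and 10318. It raised the probes of the 9 genes that passed in silenced cells to 7, against 4, and leaving out 1 array gave 4 to 7 there. An intraspot correlation of 0.502 from moments, chosen after seeing the data because simulated channels with that value returned 0.900, gave 15230 and 14993. With 1 array left out, the correlation of the 4-array fit was kept, and directions turned for Ifitm2 (brighter probe, −0.21 to 0.094 in silenced cells and −0.20 to 0.11 in control cells) and Irf1 (dimmer probe, −0.31 to 0.011 in silenced cells). The rises of Irf1 (brighter probe), Oasl2, Bst2 and Ifitm1 passed in all 11 settings in both RNAs. Cxcl10 in control cells passed in 10, and not with the authors' processed signals (limma adjusted p = 0.0615). Signal over background limits Ifit1, Oasl2, Isg15 and Cxcl10.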
